A study of Caenorhabditis elegans with 18 samples.

Results

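The insulin-like peptides of Caenorhabditis elegans were taken as the genes whose WormBase symbol is ins- followed by a number, together with daf-28. The rule used symbols alone and found 39 genes among the 20395 gene identifiers counted. Of these 39, 34 had enough reads to be tested, out of 17484 genes tested in all, and ins-13, ins-15, ins-16, ins-21 and ins-39 did not.

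RNA of whole worms was sequenced in 18 libraries, 3 for each of 6 groups. Cultures received 1 of 5 benzimidazole drugs at 1.13 mM in DMSO for 4 h, namely albendazole, fenbendazole, oxfendazole, mebendazole or thiabendazole, written ABZ, FBZ, OxBZ, MBZ and TBZ, or DMSO alone. All groups, DMSO included, are CB3474 worms with the ben-1 allele e1880, a mutation of the beta-tubulin gene through which these anthelmintics act on wild-type worms, and no wild-type group was used here. Each library is a culture of many pooled animals, grown in liquid from first-stage larvae at 20 °C for about 70 h. That protocol names adults whereas the sample labels name larvae of mixed stages, and yolk protein genes, which adult hermaphrodites express, took 1.75 to 7.75% of counts in every library. FBZ is a benzimidazole carbamate with a phenylthio group, which in OxBZ is oxidised to the sulfoxide. ABZ carries a propylthio group and MBZ a benzoyl group on the same carbamate core, and TBZ is no carbamate but carries a thiazole ring. The labels call the cultures biological replicates and number them 1 to 3, or 2 to 4 for TBZ.

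Insulin-like peptides are small secreted hormones. They are cut from precursors by proprotein convertases, packed into dense-core vesicles of neurons or secreted by intestine and epidermis, and bind a single known receptor tyrosine kinase, DAF-2. Agonists activate a cascade through the lipid kinase AGE-1 and the kinases AKT-1, AKT-2 and SGK-1, which keeps the transcription factor DAF-16 out of the nucleus, while antagonists dampen that signal. In the worm the pathway is known for control of dauer arrest, growth, reproduction, lifespan, stress resistance and learning, and the size of the family allows different tissues and conditions to use different peptides.

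Insulin-like peptide transcripts were rare: together they took 0.00433 to 0.0118% of the 57010263 to 67277284 counts of a library, and 1 read equals 0.0139 to 0.0181 CPM (counts per megaread, scaled by TMM factors). Most low counts (67.3 to 71.4% of counts from 1 to 50 in a library) were even numbers, and whether the 2 reads of a pair were counted separately is not given in the sources used here. Compared per length, as CPM per kb of exon averaged over the 6 groups, ins-7 (27.8), ins-17 (26.4), ins-27 (18.1) and ins-34 (10.7) were the most abundant members. The order changed with the drug, since under FBZ ins-7 stood at 7.07 and ins-17 at 31.2 CPM per kb, whereas under TBZ ins-7 stood at 58.9 and ins-17 at 29.0. Summed over all 39 genes, levels were 79.3 ± 4.88 CPM under ABZ, 82.5 ± 0.15 under FBZ, 49.8 ± 1.27 under OxBZ, 84.1 ± 4.41 under MBZ, 101 ± 5.59 under TBZ and 79.3 ± 6.24 in DMSO (SD, n = 3 each). OxBZ was thus the group with the least insulin-like peptide RNA and TBZ the one with the most, and the OxBZ libraries (48.4 to 50.8 CPM) did not overlap the DMSO libraries (72.7 to 85.1 CPM). Without ins-7 and ins-17 the order of the extremes changed, with 53.4 ± 7.45 CPM under ABZ, 62.2 ± 0.0781 under FBZ, 35.9 ± 1.95 under OxBZ, 53.5 ± 8.62 under MBZ, 60.4 ± 4.23 under TBZ and 52.7 ± 5.19 in DMSO, so that OxBZ remained the lowest. In whole-worm RNA, fewer cells of a type and less RNA per cell cannot be told apart.

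A pair of libraries stood apart from the rest. ABZ 2 and DMSO 2 held 4212 and 4753 CPM of sperm genes, against 62.2 to 1180 CPM in the other 16 libraries, and lay at the far end of the main axis of variation. The same-numbered libraries of ABZ and DMSO deviated together over all genes, with correlations of 0.57 to 0.84 between their deviations. Counts of calls against DMSO are therefore also given below without these libraries. Any difference among the 6 groups was called for 25 members without them, and the other counts were 19 for FBZ against OxBZ, 20 for OxBZ against MBZ, 22 for OxBZ against TBZ, 15 for ABZ against OxBZ, 8 for ABZ against FBZ, 4 for FBZ against MBZ, 10 for FBZ against TBZ, 2 for ABZ against TBZ, 0 for ABZ against MBZ and 1 for MBZ against TBZ. Over all genes, these 10 pairs had 11638, 9103, 9023, 6268, 6850, 5752, 7790, 1005, 32 and 889 calls without them, in the same order. With all 18 libraries they had 10488, 7419, 7337, 7602, 7459, 4710, 6249, 1107, 36 and 604. Against DMSO, all-gene calls without them were 213 (ABZ), 8453 (FBZ), 5844 (OxBZ), 232 (MBZ) and 810 (TBZ). No all-gene count was taken there for any difference.

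Differences were tested with edgeR's quasi-likelihood test over all 18 libraries, with Benjamini-Hochberg adjustment across the 17484 genes of each comparison, and "called" means an adjusted p below 0.05. Values after ± beside a log2 fold change are standard errors, those beside a mean CPM are SDs of 3 libraries, and every fold change is the drug over DMSO unless another pair is named. Any difference among the 6 groups was called for 17 of 34 members, against 69.5% of all genes tested. Of the single drugs, FBZ and OxBZ had most of the calls among the peptides, as they had among all genes.

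Under FBZ, 11 of 34 members (32.4%) were called, against 51.8% of all genes, with 6 higher (24.3% of all genes) and 5 lower (27.4%). The share was below that of the whole table. The peptides that rose were the antagonists ins-1 and ins-18, the intestinal peptide ins-11, and ins-17, ins-20 and ins-22. Those that fell were ins-7 and ins-35, which act as agonists, and ins-8, ins-33 and ins-37. The agonists daf-28, ins-3, ins-4 and ins-6 were not called under FBZ. Groups did not overlap for 15 members, against 65.7% of all genes. Leaving out DMSO 2 or FBZ 2 left 7 calls, and leaving out ABZ 2 and DMSO 2 together left 8, of which 3 were higher and 5 lower. Over all genes, 7413 calls were left without DMSO 2, 7711 without FBZ 2 and 8453 without ABZ 2 and DMSO 2. With all 18 libraries there were 9049.

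Under OxBZ 14 of 34 members (41.2%) fell and none rose. Among all genes 42.7% were called under OxBZ, 21.5% lower and 21.2% higher, so that the share of peptides called was near that of the whole table, while the lower calls alone were above it. The median log2 fold change of the 34 members was -0.68, against -0.01 over all genes tested, and 28 of the 34 estimates were negative. In 17 members the OxBZ and DMSO libraries did not overlap, against 50.3% of all genes. Leaving out OxBZ 1 or OxBZ 2 left 9 calls and leaving out DMSO 3 or OxBZ 3 left 8. Without ABZ 2 and DMSO 2 there were 16, again with none higher. Over all genes, calls numbered 4421 without OxBZ 1, 5182 without OxBZ 2, 7424 without DMSO 3 and 6208 without OxBZ 3. Without ABZ 2 and DMSO 2 they numbered 5844, and with all 18 libraries 7466. With only the OxBZ and DMSO libraries in the fit 9 members were called, of which ins-8 was higher, and 4453 of all genes. DESeq2 also called ins-8 higher. With the replicate number as a block and with counts halved, ins-8 and ins-19 were both called higher.

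The other drugs left the peptides mostly uncalled. ABZ raised 1 member, ins-11, and lowered none, against 2.2% of all genes called and 1.6% called higher. The labels name no batch or shared culture, and the main fit used no block. Same-numbered ABZ and DMSO libraries nevertheless deviated together, with correlations of 0.57 to 0.84. With the number as a block over all 18 libraries ins-35 was also called, as lower. With that block on these 2 groups alone ins-35 was called and ins-11 was not. TBZ raised 1 member, ins-8, and lowered none, against 6.23% of all genes called and 3.06% called higher. Neither call was made without ABZ 2 and DMSO 2, and that of TBZ also rested on other single libraries, given below. No member was called by edgeR under MBZ, against 1.48% of all genes, although 5 had an unadjusted p below 0.05 and DESeq2 called 1, ins-11. Without ABZ 3 in the fit edgeR also called 1. Groups did not overlap for 4 members under ABZ, 5 under MBZ and 7 under TBZ, against 11.7%, 21.6% and 22.2% of all genes. Over the 5 drugs, 15 members (44.1%) were called under none, 11 (32.4%) under 1 drug and 8 (23.5%) under 2 drugs, against 29%, 43.2% and 23.9% of all genes. No member was called under 3 or more, against 3.89% of all genes, but some were in alternative analyses. ins-35 was called under ABZ, FBZ and OxBZ with the block, by DESeq2 and with adjustment over all comparisons together. ins-8 was called under FBZ, OxBZ and TBZ with the block, by DESeq2 and with counts halved. ins-11 was called under ABZ, FBZ and MBZ by DESeq2 and with adjustment over all comparisons together. The share of all genes was not taken there. All 5 comparisons share the DMSO libraries.

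**Figure D1:**
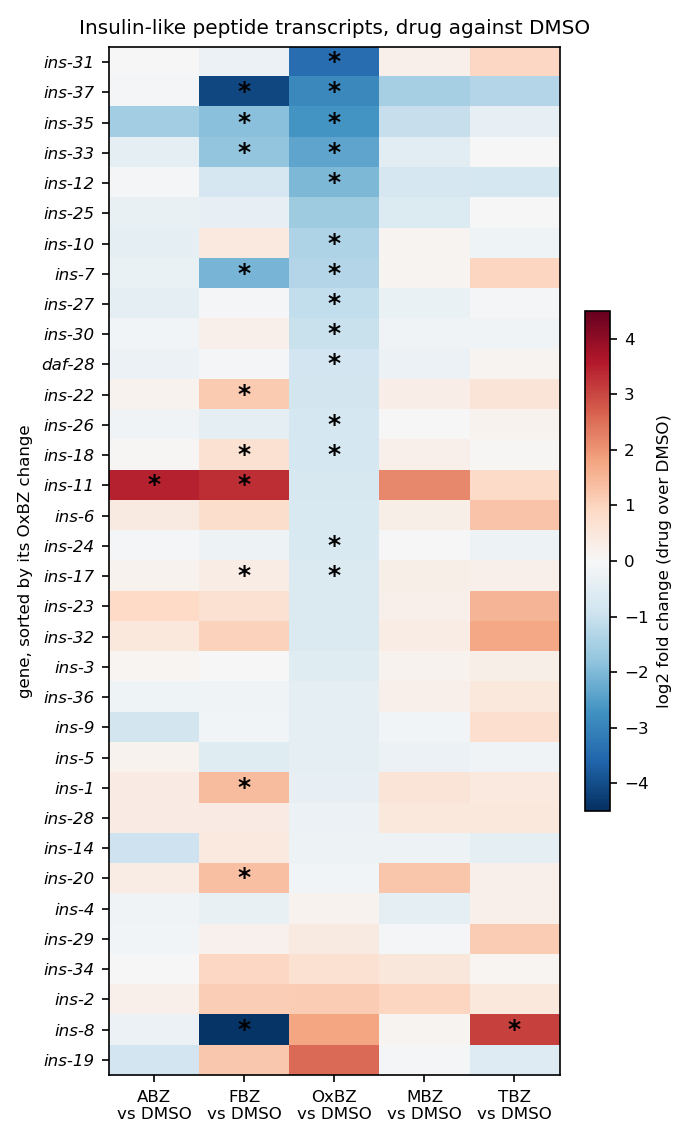
Log2 fold change of each of the 34 tested insulin-like peptide genes (rows, sorted by the OxBZ value) under each drug over DMSO (columns, 3 libraries a group), with red for higher and blue for lower under the drug and an asterisk for an adjusted p below 0.05. The OxBZ column is blue in 28 of 34 rows and all of its 14 asterisks are on blue cells, whereas the 11 asterisks under FBZ are on 6 red and 5 blue cells.

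Marker genes of other tissues moved with the same groups, and their part in the results was not tested. All 14 tested neuron markers were higher under FBZ (median log2 fold change 0.83), with 765 to 802 summed CPM, against 408 to 474 CPM in DMSO. Under OxBZ 8 of the 14 were lower and 2 higher (median -0.46), while their summed level was 491 to 509 CPM; the 2 that rose were snb-1 (0.65) and unc-18 (0.69). Of the 10 tested intestine markers, 6 were lower and 1 higher under FBZ (median -0.44), and 7 were lower and 3 higher under OxBZ (median -0.92). Their summed level was 4091 to 4205 CPM under FBZ and 2694 to 2990 CPM under OxBZ, against 6553 to 7587 CPM in DMSO. Under ABZ 2 neuron markers and 1 intestine marker were higher, under MBZ 3 neuron markers were higher, and under TBZ 1 intestine marker was higher and 4 were lower, with no other calls in these lists. Sperm genes were lower for 53 of 54 under FBZ and 16 of 54 under OxBZ, and the cuticle markers of larvae summed to 1687 to 1871 CPM under FBZ and 573 to 1372 CPM under OxBZ, against 313 to 1148 CPM in DMSO. Of the listed markers that were not tested, unc-17 of neurons had 0 reads in all libraries and opt-2 of intestine was not matched to a symbol. No tested neuron or intestine marker was at 0, the lowest group mean among FBZ, OxBZ and DMSO being 1.52 ± 0.369 CPM for eat-4, the vesicular glutamate transporter gene, under OxBZ. Exact two-sided permutation tests of these lists' shares of counts cannot give a p below 0.1 with 3 against 3 libraries. They gave 0.1 for the neuron list under all 5 drugs and for the intestine list under FBZ, OxBZ and TBZ (adjusted over 35 tests, 0.292). The mean share of the neuron list was higher under OxBZ (0.0463%) than in DMSO (0.0419%), although more of its genes were called lower than higher.

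ins-1, a neuronal peptide that antagonises DAF-2 and is needed for learning to avoid salt paired with starvation, had 6.09, 6.86 and 7.55 CPM under FBZ and 1.64, 2.06 and 2.29 CPM under OxBZ, against 3.01, 1.85 and 2.81 CPM in DMSO. Every FBZ library lay above every library of the other groups, while the OxBZ and DMSO libraries overlapped. Its log2 fold change was 1.42 ± 0.21 (adjusted p = 0.000220) under FBZ and -0.36 ± 0.21 (adjusted p = 0.188) under OxBZ. ins-1 levels were 2.90, 3.00 and 3.98 CPM under ABZ, 3.81, 3.22 and 4.34 under MBZ and 3.31, 3.73 and 3.41 under TBZ, with no call against DMSO. All of the MBZ and TBZ libraries were nevertheless above all DMSO libraries. The FBZ call held in each of the 26 alternative analyses. Neuron markers rose under FBZ as well, by a median of 0.83, and their part in the ins-1 values was not tested.

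ins-18, an antagonist known to favour dauer formation, had 3.79, 3.83 and 3.94 CPM under FBZ and 1.19, 1.64 and 1.32 CPM under OxBZ, against 2.97, 1.86 and 2.35 CPM in DMSO. The DMSO libraries lay between those of the 2 drugs without overlap. It was called in opposite directions, with 0.68 ± 0.23 (adjusted p = 0.0250) under FBZ and -0.79 ± 0.24 (adjusted p = 0.0173) under OxBZ. In the other groups it stood at 1.81, 2.53 and 3.08 CPM under ABZ, 3.02, 2.77 and 2.70 under MBZ and 3.00, 2.58 and 1.93 under TBZ, all of them groups that overlapped DMSO. The rise under FBZ was modest and was no longer called in 7 of 26 alternative analyses, among them without DMSO 2 (adjusted p = 0.0852), DMSO 3 or any single FBZ library. The OxBZ call was lost without OxBZ 1 (adjusted p = 0.0512) and with only the OxBZ and DMSO libraries in the fit (adjusted p = 0.0734).

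ins-17, reported as a promoter of dauer arrest and among the most abundant members, had 17.4, 17.5 and 17.3 CPM under FBZ and 9.42, 9.21 and 7.77 CPM under OxBZ, against 14.3, 11 and 16.1 CPM in DMSO. Again the 3 groups did not overlap, with DMSO in the middle. The change under OxBZ was -0.65 ± 0.12 (adjusted p = 0.000964) and was called in all 26 alternatives. That under FBZ was 0.33 ± 0.12 (adjusted p = 0.0330) and was lost in 7 of 26, among them without DMSO 2 or any single FBZ library. Elsewhere ins-17 was not called, with 15.6, 14.4 and 16.3 CPM under ABZ, 16.9, 16.2 and 16.5 under MBZ and 15.3, 17.4 and 15.7 under TBZ.

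Among the agonists, daf-28 is a neuronal peptide that promotes reproductive growth over dauer arrest. Its level was 1.91, 1.76 and 1.60 CPM under OxBZ and 3.01, 3.14 and 3.21 CPM under FBZ, against 3.40, 2.47 and 3.73 CPM in DMSO. All OxBZ libraries were below all DMSO libraries, while FBZ lay within the DMSO range. The log2 fold change was -0.87 ± 0.28 (adjusted p = 0.0229) under OxBZ and -0.04 ± 0.27 (adjusted p = 0.917) under FBZ. With ABZ, daf-28 had 1.61, 3.00 and 3.48 CPM, with MBZ 1.92, 2.73 and 3.27 and with TBZ 2.74, 3.84 and 3.77, none of them called. The OxBZ call was lost when DMSO 3, OxBZ 2 or OxBZ 3 was left out (adjusted p up to 0.0678).

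The 2 peptides that act with daf-28 in the dauer decision were not called under any drug. ins-6, which also promotes exit from dauer, had 0.818, 0.723 and 1.13 CPM under FBZ, 0.444, 0.348 and 0.156 under OxBZ and 1.44, 1.09 and 1.23 under TBZ, against 0.432, 0.359 and 0.746 CPM in DMSO. Only the TBZ libraries were all above DMSO, with a log2 fold change of 1.28 ± 0.52 (adjusted p = 0.173). ABZ gave ins-6 0.254, 0.486 and 1.30 CPM and MBZ 0.409, 0.541 and 0.880 CPM. ins-4 had 0.869, 1.46 and 1.30 CPM under ABZ, 1.37, 0.862 and 1.01 under FBZ, 1.57, 1.64 and 1.34 under OxBZ, 0.925, 1.11 and 0.953 under MBZ and 1.06, 1.68 and 2.02 under TBZ, against 1.61, 0.986 and 1.44 CPM in DMSO. Each of its drug groups overlapped DMSO, and its log2 fold changes lay between -0.43 (MBZ) and 0.23 (TBZ).

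ins-7, an agonist made in intestine and neurons that DAF-16 represses, had 3.08, 2.78 and 3.09 CPM under FBZ and 4.80, 5.66 and 5.05 CPM under OxBZ, against 19.6, 13.3 and 5.61 CPM in DMSO. The FBZ libraries were tight and all below DMSO, while OxBZ 2 overlapped the lowest DMSO library. Under FBZ the log2 fold change was -2.1 ± 0.47 (adjusted p = 0.00242), a call that held in all 26 alternatives. The OxBZ value of -1.31 ± 0.46 (adjusted p = 0.0332) was lost in 8 of 26, among them without any single OxBZ library, DMSO 1 or DMSO 2 (adjusted p up to 0.12). ins-7 levels were 26.2, 25.8 and 22.5 CPM under TBZ, all above DMSO, but the change of 0.95 ± 0.45 (adjusted p = 0.243) was not called. The remaining groups spread as widely as DMSO, with 15.5, 11 and 4.64 CPM under ABZ and 17.9, 17.5 and 6.68 CPM under MBZ, libraries 1 to 3 in that order. The library numbered 3 was the lowest of ABZ, MBZ and DMSO alike.

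ins-35, an intestinal peptide reported to act with ins-7, had 0.566, 0.501 and 0.932 CPM under FBZ and 0.376, 0.348 and 0.405 CPM under OxBZ, against 1.83, 2.08 and 3.47 CPM in DMSO. Both drugs lay wholly below DMSO. On the log2 scale ins-35 changed by -1.88 ± 0.43 (adjusted p = 0.00278) under FBZ and -2.70 ± 0.45 (adjusted p = 0.000391) under OxBZ, and both calls held in all 26 alternatives. ABZ libraries, at 0.489, 1.01 and 0.973 CPM, were also all below DMSO, but the change of -1.58 ± 0.43 (adjusted p = 0.0793) was not called. With the replicate number as a block it was called, at -1.54 (adjusted p = 0.0351) over all 18 libraries and -1.59 (adjusted p = 0.0269) with the ABZ and DMSO libraries alone, and DESeq2 also called it (adjusted p = 0.0105). MBZ gave 0.889, 0.626 and 2.11 CPM and TBZ 1.77, 2.12 and 1.85 CPM, with no call. Intestine markers moved with these genes, with a median of -0.44 under FBZ and -0.92 under OxBZ, and their part was not tested.

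ins-33, which with ins-3 is needed for full proliferation of the larval germ line, had 0.252, 0.139 and 0.425 CPM under FBZ and 0.171, 0.279 and 0.0934 CPM under OxBZ, against 0.947, 1.15 and 0.730 CPM in DMSO. All 6 drug libraries were below all DMSO libraries. The fitted change was -1.79 ± 0.55 (adjusted p = 0.0144) under FBZ and -2.37 ± 0.57 (adjusted p = 0.00505) under OxBZ; the OxBZ call held in all alternatives, and the FBZ call was lost without FBZ 2. ins-33 had 0.616, 1.01 and 0.530 CPM under ABZ, 0.587, 0.882 and 0.513 under MBZ and 1.72, 0.606 and 0.433 under TBZ, where TBZ 2 was the highest library of all. ins-3, a neuronal agonist, was not called against DMSO under any drug.

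**Figure D2:**
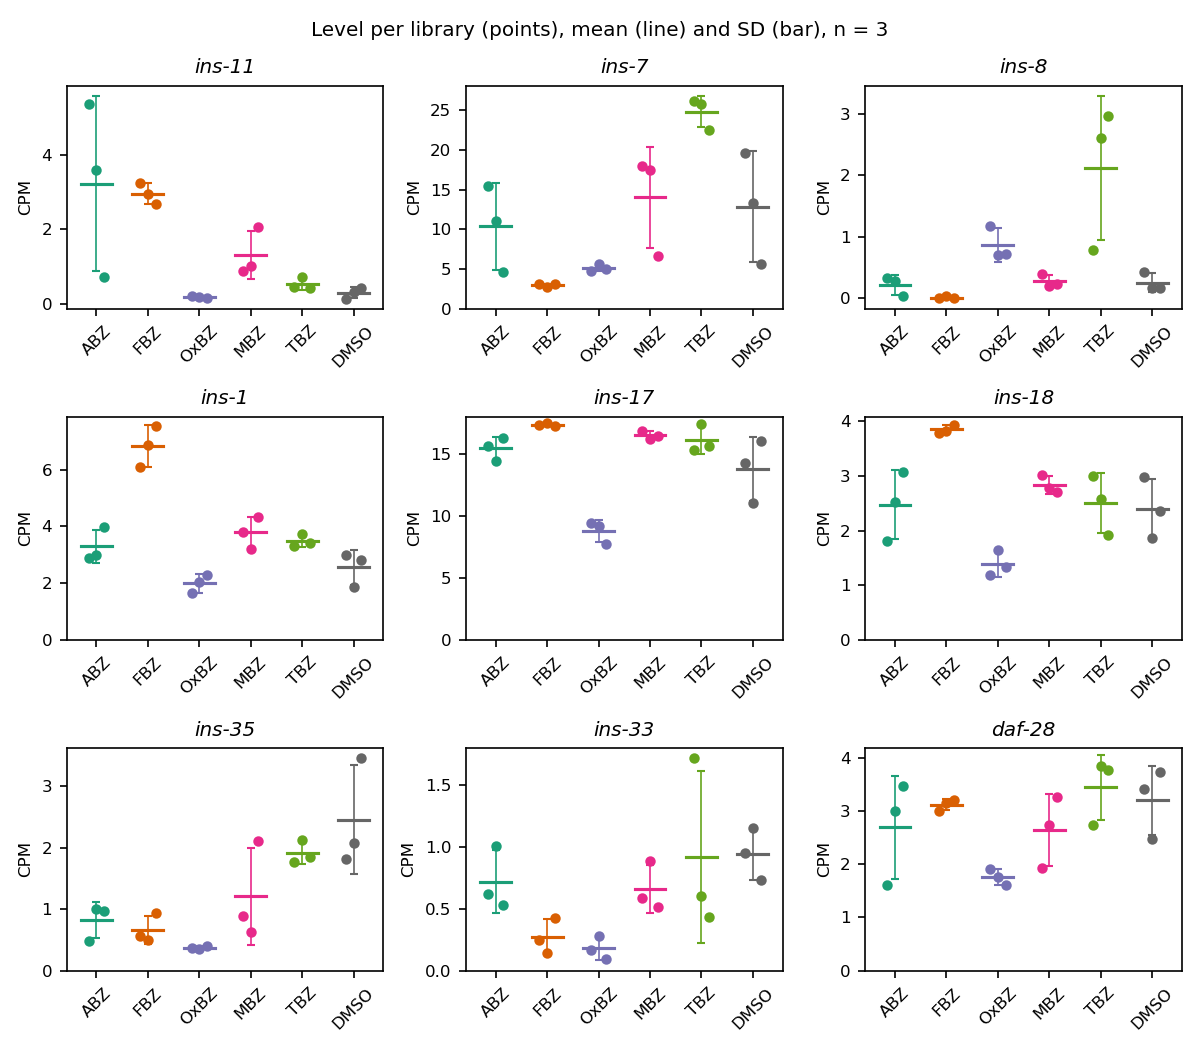
CPM of 9 insulin-like peptide genes in each library (points), with the group mean (line) and SD (bar) of 3 libraries, for the 5 drugs and DMSO from left to right. FBZ and OxBZ lie on opposite sides of DMSO for ins-17 and ins-18 and on the same side for ins-7, ins-33 and ins-35, and ins-8 has 0 reads in 2 of 3 FBZ libraries.

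ins-11, an intestinal peptide induced by pathogenic bacteria that dampens pathogen avoidance, showed the largest rise of the family under ABZ and FBZ. Its level was 5.40, 3.59 and 0.707 CPM under ABZ, 3.24, 2.96 and 2.70 under FBZ, 0.889, 1.01 and 2.07 under MBZ, 0.440, 0.728 and 0.418 under TBZ and 0.205, 0.174 and 0.156 under OxBZ, against 0.133, 0.323 and 0.422 CPM in DMSO. All ABZ, FBZ and MBZ libraries were above all DMSO libraries, with a wide spread under ABZ and MBZ and a narrow one under FBZ. The log2 fold change was 3.46 ± 0.62 (adjusted p = 0.00880) under ABZ, 3.33 ± 0.62 (adjusted p = 0.000830) under FBZ and 2.17 ± 0.60 (adjusted p = 0.105) under MBZ. The FBZ call held in all 26 alternatives. The ABZ call was lost with the ABZ and DMSO libraries alone in the fit, both without a block (adjusted p = 0.445) and with the replicate number as a block (3.11, adjusted p = 0.231), and without ABZ 2 and DMSO 2 (3.39, adjusted p = 0.0665), and was kept with the block over all 18 libraries (3.45, adjusted p = 0.0278).

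ins-12, the neighbour of ins-11, had 0.171, 0.279 and 0.187 CPM under OxBZ and 0.551, 0.556 and 0.425 CPM under FBZ, against 0.863, 0.735 and 1.01 CPM in DMSO. Both drugs were below DMSO in every library, by more under OxBZ. The change under OxBZ was -2.03 ± 0.47 (adjusted p = 0.00421) and held in all alternatives, while that under FBZ, -0.76 ± 0.44 (adjusted p = 0.163), was not called. With ABZ ins-12 stood at 0.779, 1.11 and 0.589 CPM, with MBZ at 0.480, 0.313 and 0.762 and with TBZ at 0.762, 0.576 and 0.179.

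ins-8, which lies beside ins-7, was called in opposite directions under FBZ and TBZ. Its level was 0, 0.0278 and 0 CPM under FBZ, 1.18, 0.697 and 0.716 under OxBZ and 0.792, 2.61 and 2.97 under TBZ, against 0.432, 0.161 and 0.162 CPM in DMSO. FBZ lay below all other groups, TBZ and OxBZ lay wholly above DMSO, and TBZ 2 was far below TBZ 3 and TBZ 4. FBZ 2 and ABZ 3 had 2 reads each, so that only the scaling sets these libraries apart. FBZ had 2 reads in all and DMSO 45, so that DMSO was 24.9-fold higher than FBZ with a 95% counting interval of 6.50 to 212. Such intervals cover counting error only and treat reads as independent, so that they are too narrow if both reads of a pair were counted. The fitted log2 fold change was -4.40 ± 1.07 (adjusted p = 0.00390) under FBZ and 3.06 ± 0.73 (adjusted p = 0.0235) under TBZ. Under OxBZ the value of 1.77 ± 0.71 (adjusted p = 0.0589) was not called. The TBZ call rested on single libraries, since it was lost without DMSO 2, DMSO 3, TBZ 3 or TBZ 4 (log2 fold change 2.74 to 2.89, adjusted p up to 0.0994). It was also lost without ABZ 2 and DMSO 2 together (adjusted p = 0.0544). With only the TBZ and DMSO libraries in the fit the adjusted p was 0.182. ins-8 had 0.326, 0.277 and 0.0295 CPM under ABZ and 0.391, 0.199 and 0.235 CPM under MBZ, with no call.

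ins-37 had 0.409, 0.278 and 0.392 CPM under FBZ and 0.836, 0.923 and 0.670 CPM under OxBZ, against 2.06, 13.7 and 2.61 CPM in DMSO. All FBZ and OxBZ libraries were below all DMSO libraries, but DMSO 2 was far above the other DMSO libraries, and ABZ 2 stood out in the same way among 1.56, 12.9 and 2.76 CPM under ABZ. These are the libraries with the most sperm RNA, and what part that has in the ins-37 values was not tested. The log2 fold change was -4.08 ± 0.81 (adjusted p = 0.00118) under FBZ and -2.92 ± 0.76 (adjusted p = 0.00819) under OxBZ. Without DMSO 2 it was -2.68 under FBZ, where it was still called, and -1.60 under OxBZ, where the call was lost (adjusted p = 0.0747). MBZ and TBZ, at 2.38, 2.08 and 2.1 CPM and 2.37, 2.41 and 2.66 CPM, were close to DMSO 1 and DMSO 3.

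ins-31 had 0.0683, 0.139 and 0.125 CPM under OxBZ, against 0.764, 0.143 and 2.71 CPM in DMSO. OxBZ was just below DMSO 2 and far below DMSO 3. The log2 fold change was -3.42 ± 1.10 (adjusted p = 0.0232). Without DMSO 3 it was -2.02 and not called (adjusted p = 0.139), and leaving out any single OxBZ library also ended the call. FBZ gave 1.04, 1.17 and 0.785 CPM and ABZ 0.598, 0.590 and 2.45 CPM, with ABZ 3 the highest of its group. MBZ gave 0.427, 0.626 and 3.17 CPM and TBZ 0.645, 3.43 and 2.81 CPM. The library numbered 3 was the highest of ABZ, MBZ, TBZ and DMSO for ins-31, whereas it was the lowest of ABZ, MBZ and DMSO for ins-7.

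**Figure D3:**
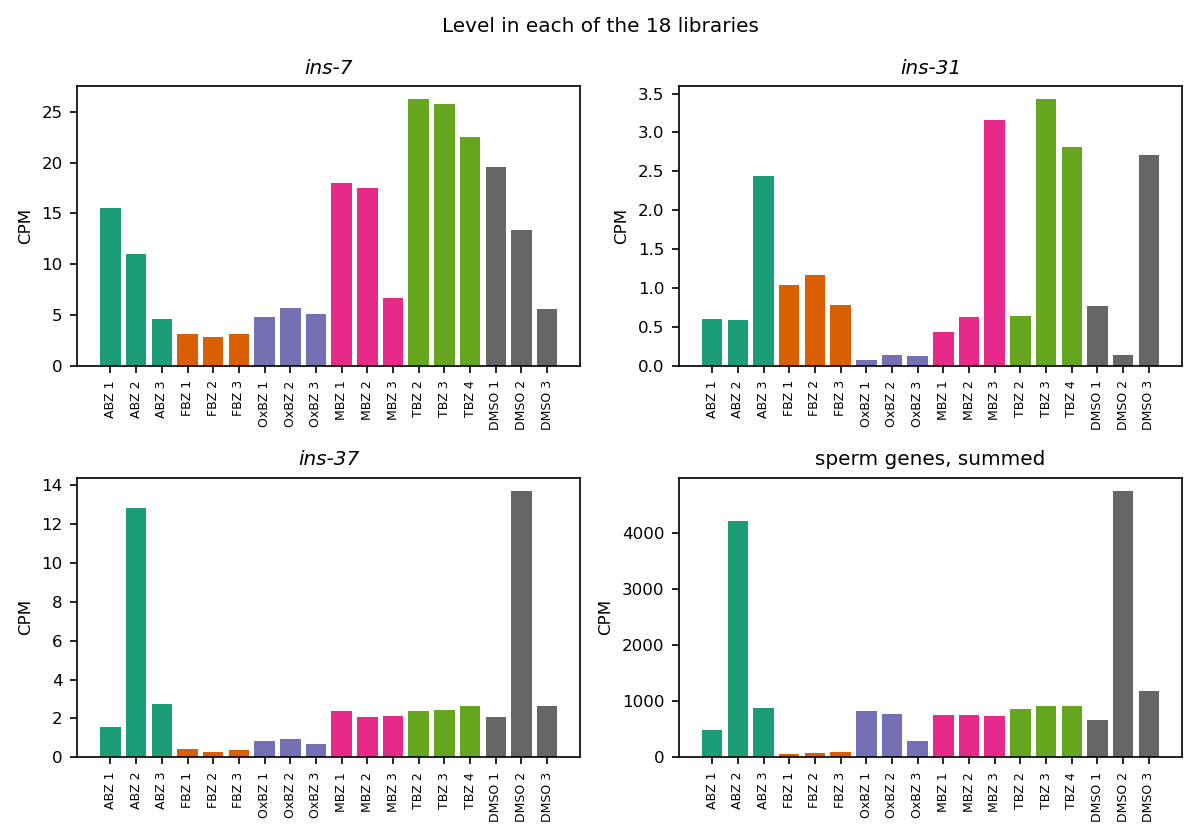
CPM in each of the 18 libraries, grouped by drug with DMSO at the right, for ins-7, ins-31, ins-37 and the sum of the sperm genes (bars start at 0). ins-37 and the sperm genes are highest in ABZ 2 and DMSO 2, and the libraries numbered 3 of ABZ, MBZ and DMSO are low for ins-7 and high for ins-31.

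The other members that rose under FBZ were ins-20 and ins-22. ins-20 had 2.03, 1.72 and 1.31 CPM under FBZ, against 0.731, 0.395 and 0.843 CPM in DMSO, with no overlap. Its log2 fold change was 1.36 ± 0.41 (adjusted p = 0.0124), 2.56-fold, and was lost only without DMSO 2 (adjusted p = 0.0551). Under MBZ it reached 0.925, 2.08 and 1.70 CPM, all above DMSO, without a call (1.25 ± 0.40, adjusted p = 0.157). The other groups had 0.398, 1.01 and 1.11 CPM (ABZ), 0.512, 0.714 and 0.592 CPM (OxBZ) and 0.616, 0.970 and 0.732 CPM (TBZ).

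ins-22, widely used in tagged form as a cargo marker of dense-core vesicles, had 2.71, 3.17 and 2.24 CPM under FBZ, against 0.897, 0.717 and 1.95 CPM in DMSO. All FBZ libraries were above DMSO, though DMSO 3 came close. ins-22 rose by 1.19 ± 0.38 (adjusted p = 0.0189), 2.28-fold, a call that was lost in 5 of 26 alternatives, among them without DMSO 1, DMSO 2 or FBZ 2. OxBZ gave 0.785, 0.836 and 0.405 CPM, ABZ 0.906, 1.46 and 1.65, MBZ 1.46, 1.39 and 1.58 and TBZ 1.19, 2.15 and 1.97 CPM, none of them called.

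A run of 7 neighbouring genes, ins-28, ins-29, ins-25, ins-27, ins-24, ins-30 and ins-26 in RefSeq's order for the assembly WBcel235 with at most 2 other genes between members, held 4 of the 14 falls under OxBZ and no other call. ins-27 had 3.12, 2.75 and 3.50 CPM under OxBZ, against 6.23, 5.63 and 8.43 CPM in DMSO. OxBZ was below every DMSO library, and below every library of the other drugs (4.80, 4.30 and 6.19 CPM under ABZ, 5.98, 6.44 and 7.18 under FBZ, 4.02, 5.83 and 6.80 under MBZ and 6.24, 7.49 and 5.95 under TBZ). Its log2 fold change was -1.11 ± 0.22 (adjusted p = 0.00126) and held in all alternatives.

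ins-24 had 0.922, 0.975 and 0.794 CPM under OxBZ, against 1.21, 1.34 and 1.82 CPM in DMSO, a log2 fold change of -0.70 ± 0.22 (adjusted p = 0.0229). ins-26 had 1.30, 1.32 and 1.35 CPM under OxBZ, against 2.23, 2.04 and 2.66 CPM in DMSO, or -0.80 ± 0.27 (adjusted p = 0.0296). For ins-30 the levels were 0.717, 1.06 and 0.856 CPM under OxBZ, against 1.58, 1.74 and 1.98 CPM in DMSO, or -1.01 ± 0.34 (adjusted p = 0.0276). In all 3 genes the groups did not overlap. Each call was lost without DMSO 3 and without OxBZ 3, that of ins-26 also without OxBZ 1 or OxBZ 2, and that of ins-30 also without DMSO 2 or OxBZ 1 (adjusted p up to 0.094 for ins-24, 0.0827 for ins-26 and 0.0885 for ins-30). In the other groups, ins-24 had 1.10, 1.58 and 1.4 CPM under ABZ, 1.27, 1.14 and 1.34 under FBZ, 1.21, 1.68 and 1.55 under MBZ and 1.33, 1.32 and 1.05 under TBZ. ins-26 had 1.45, 2.50 and 2.30 CPM under ABZ, 1.53, 1.91 and 1.70 under FBZ, 1.42, 2.65 and 2.79 under MBZ and 3.15, 2.38 and 2.12 under TBZ. ins-30 had 0.797, 2.29 and 1.72 CPM under ABZ, 1.49, 2.39 and 2.37 under FBZ, 1.39, 1.74 and 1.67 under MBZ and 2.02, 1.53 and 1.24 under TBZ. None of these groups was called against DMSO. ins-25, ins-28 and ins-29 were not called under any drug, and the 7 genes' median log2 fold change was -0.80 under OxBZ and between -0.14 and -0.03 under the other drugs.

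The other large group of neighbours, ins-2, ins-3, ins-4, ins-5, ins-6 and ins-20, had 1 call in all, the rise of ins-20 under FBZ, and a median log2 fold change of 0.41 under FBZ and -0.26 under OxBZ. ins-10 was the last of the members that fell under OxBZ. It had 0.546, 0.557 and 0.623 CPM under OxBZ, against 1.15, 0.789 and 2.56 CPM in DMSO, without overlap. It changed by -1.38 ± 0.46 (adjusted p = 0.0284); without DMSO 3 it was -0.75 and not called (adjusted p = 0.181), and the call was also lost without any single OxBZ library. Levels were 1.01, 0.590 and 1.80 CPM under ABZ, 2.34, 2.11 and 1.68 under FBZ, 1.21, 1.51 and 2.13 under MBZ and 0.792, 1.55 and 1.64 under TBZ. The gene overlaps vps-39 on the opposite strand, and since the strand setting of the counting is not given in the sources used here, reads of the 2 genes cannot be told apart.

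Fenbendazole and its sulfoxide were then compared directly, at the same dose and time. Of 34 members, 16 were called, 15 higher and 1 lower in FBZ than in OxBZ, against 60% of all genes called, 29.5% higher and 30.5% lower. The share called was below that of the whole table, while the higher calls alone were above it. The groups did not overlap for 23 members, against 77.6% of all genes. The median log2 difference of the members, FBZ over OxBZ, was 0.74, and that of all genes 0.00. In all 16 the groups did not overlap.

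The 15 members higher under FBZ included both antagonists and agonists. ins-1 differed by 1.78 ± 0.22 (adjusted p = 1.04e-05) and ins-18 by 1.47 ± 0.24 (adjusted p = 0.000118), which is 3.42-fold and 2.78-fold. ins-17 differed by 0.98 ± 0.12 (adjusted p = 1.27e-05), or 1.98-fold, with the smallest error of the 34. Of the dauer-inhibiting agonists, daf-28 differed by 0.83 ± 0.28 (adjusted p = 0.0188) and ins-6, which was not called against DMSO under either drug, by 1.49 ± 0.54 (adjusted p = 0.0271). ins-11 had the largest difference, 4.04 ± 0.65 (adjusted p = 0.000110) or 16.5-fold. The dense-core vesicle cargo ins-22 differed by 2.0 ± 0.40 (adjusted p = 0.000593), and ins-10, ins-12, ins-20, ins-23, ins-27, ins-28, ins-30 and ins-31 by 0.63 to 3.15 (adjusted p 0.000767 to 0.0317). All 6 members that rose under FBZ were also higher in FBZ than in OxBZ, and so were 8 of the 14 that fell under OxBZ. The calls against DMSO used the same FBZ or OxBZ libraries, so this overlap is no separate evidence. The share over all genes was not taken for it. Neuron markers moved the same way between FBZ and OxBZ, with 12 of 14 higher in FBZ and 1 lower (median 1.60). Their part was not tested.

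A single member was lower under FBZ than under its sulfoxide. ins-8 had 2 reads under FBZ and 155 under OxBZ, so that OxBZ was 84.5-fold higher than FBZ, with a 95% counting interval of 23 to 704, subject to the same limit. The fitted difference was -6.17 ± 1.03 (adjusted p = 0.000146). Members that fell under both drugs did not separate them by the test: the difference was -0.79 for ins-7 (95% interval -1.77 to 0.19), 0.82 for ins-35 (-0.12 to 1.76), 0.58 for ins-33 (-0.65 to 1.82) and -1.17 for ins-37 (-2.79 to 0.46). These intervals leave room for differences of over 1 log2 unit. For ins-2 it was -0.03 (-1.25 to 1.18) and for the agonist ins-4 -0.49 (-1.10 to 0.13).

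**Figure D4:**
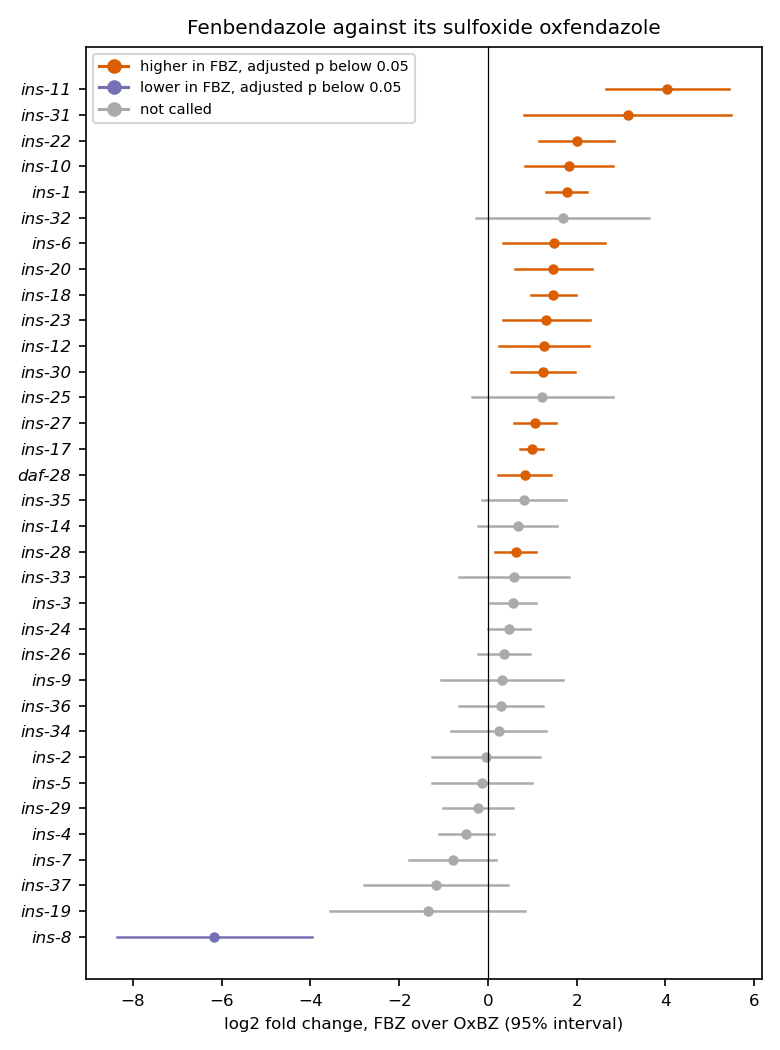
Difference between FBZ and its sulfoxide OxBZ for each of the 34 tested insulin-like peptide genes, as log2 fold change FBZ over OxBZ (x axis) with its 95% interval. Orange (higher in FBZ) and purple (lower in FBZ) mark an adjusted p below 0.05, and grey marks genes not called. Of the 16 points in orange or purple, 15 lie right of 0, from 0.63 for ins-28 to 4.04 for ins-11, and ins-8 lies left at -6.17.

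The drugs were compared in 10 pairs in all, and counts adjusted over the 10 pairs together are given after those adjusted within a pair. OxBZ was lower than the other carbamates and than TBZ in many members. Against MBZ it had 17 lower and none higher (42.4% of all genes called, 20.1% lower; 16 over the 10 pairs), with a median of -0.87 against -0.14 over all genes. Without MBZ 3 the count was 8, without OxBZ 1 it was 9, and without MBZ 2 or OxBZ 3 it was 10. All-gene calls were 5948 without MBZ 3, 5565 without OxBZ 1, 6127 without MBZ 2 and 7422 without OxBZ 3. With all libraries they were 7419. Against TBZ, OxBZ had 18 lower and 1 higher (42% of all genes called, 19.1% lower, and 15 members over the 10 pairs). The median was -0.96 against -0.10. The member higher in OxBZ was ins-19, at 0.256, 0.557 and 1.09 CPM in OxBZ and 0.132, 0 and 0.0747 CPM in TBZ.

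ABZ exceeded OxBZ in 14 members and was below it in 2, ins-8 and ins-19 (43.5% of all genes called, 22% higher and 21.4% lower; 13 over the 10 pairs), with a median of 0.71, against 0.09 over all genes. That count was the least stable of those with OxBZ, at 6 with only these 2 groups in the fit and 7 to 10 without ABZ 2, ABZ 3 or any single OxBZ library. All-gene calls were 4663 with only these 2 groups, 5256 without ABZ 2 and 6734 without ABZ 3. Without OxBZ 1, OxBZ 2 or OxBZ 3 they were 4854, 5186 and 6422, against 7602 in the main fit. In 7 members, ins-1, ins-12, ins-17, ins-18, ins-27, ins-28 and ins-31, OxBZ was called lower than each of the 4 other drugs. That is 20.6% of the members, against 10.2% of all genes, and the 4 comparisons share the OxBZ libraries. Of these, 5 were also called lower than DMSO, and ins-1 and ins-28 were not. ins-28 had 1.83, 2.02 and 1.59 CPM under OxBZ, 2.30, 2.86 and 3.27 under ABZ, 2.25, 2.88 and 3.27 under FBZ, 2.85, 2.87 and 3.27 under MBZ and 2.95, 3.46 and 2.72 under TBZ, against 2.42, 1.61 and 2.50 CPM in DMSO, so that OxBZ was below all libraries of the other drugs but overlapped DMSO.

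FBZ differed from the remaining drugs in fewer members. ABZ and FBZ differed in 7, 3 higher and 4 lower in ABZ (42.7% of all genes called, 24% higher and 18.7% lower; 5 over the 10 pairs; 4 without FBZ 1). ins-7 (1.80), ins-37 (3.99) and ins-8 (4.12) were higher in ABZ, and ins-1 (-1.05), ins-14 (-1.36), ins-18 (-0.64) and ins-22 (-1.01) lower. FBZ and MBZ differed in 4 (26.9% of all genes; 4 over the 10 pairs; 8 with only these groups in the fit): ins-1 was higher in FBZ (0.85), and ins-7 (-2.23), ins-8 (-4.52) and ins-37 (-2.60) were lower. FBZ and TBZ differed in 8 (35.7% of all genes; 8 over the 10 pairs; 5 without FBZ 1 and 4 without FBZ 2), with ins-1, ins-11 and ins-20 higher in FBZ and ins-7, ins-8, ins-33, ins-35 and ins-37 lower. ins-1 was thus called higher in FBZ than in every other group. ins-7 and ins-8 were called lower in FBZ than in each group but, for ins-7, OxBZ. All-gene calls were 5721 for ABZ against FBZ without FBZ 1, and 7423 for FBZ against MBZ with only these groups. For FBZ against TBZ they were 4337 without FBZ 1 and 4588 without FBZ 2.

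ABZ and MBZ, which differ in a propylthio against a benzoyl group, were not told apart by edgeR's test in any member, against 0.206% of all genes called (0.0744% higher and 0.132% lower in ABZ). DESeq2 also called none, and 2 members had an unadjusted p below 0.05. ins-11 had 5.40, 3.59 and 0.707 CPM in ABZ and 0.889, 1.01 and 2.07 CPM in MBZ, a difference of 1.28 with a 95% interval of 0.08 to 2.49. For ins-20 it was -0.90 (-1.76 to -0.05; adjusted p = 0.551 for each of the 2 genes). ABZ and TBZ differed in ins-8, lower in ABZ (-3.34 ± 0.75, adjusted p = 0.0154), and in ins-11, higher in ABZ although the groups overlapped (2.61 ± 0.59, adjusted p = 0.0169), against 6.33% of all genes (3.94% higher and 2.4% lower in ABZ). Over the 10 pairs there were 4 calls. None was left without TBZ 4 or with only these groups in the fit, where all-gene calls were 634 and 44. ins-11 was lost without ABZ 1 and ins-8 without TBZ 3. MBZ and TBZ differed in ins-8 alone, lower in MBZ (-2.95 ± 0.72, adjusted p = 0.0380), against 3.45% of all genes called and 1.26% called lower in MBZ. That call was lost without any single MBZ library, TBZ 3, TBZ 4, FBZ 1, OxBZ 2 or OxBZ 3, and there were 3 calls without TBZ 2.

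The 15 members called under no drug were not all without signal. ins-23 had 2.73, 5.85 and 6.96 CPM under TBZ and 1.76, 4.08 and 4.18 CPM under ABZ, against 1.39, 1.17 and 2.82 CPM in DMSO, where TBZ 2 overlapped the highest DMSO library (1.53 ± 0.45, adjusted p = 0.0633 under TBZ). ins-19, which had 0 reads in DMSO 2, stood at 0.256, 0.557 and 1.09 CPM under OxBZ, against 0.282, 0 and 0.0324 CPM in DMSO (2.57 ± 1.11, adjusted p = 0.0742). Both missed the threshold. ins-2 had 3.81, 3.77 and 3.96 CPM under FBZ and 3.55, 3.69 and 4.56 CPM under OxBZ, against 2.99, 0.305 and 2.08 CPM in DMSO, of which DMSO 2 was far the lowest (1.10 under FBZ and 1.13 under OxBZ). ins-34, the fourth most abundant member per length, had 8.45, 8.17 and 6.46 CPM under FBZ, against 7.01, 1.95 and 3.24 CPM in DMSO, and overlaps nkcc-1 on the opposite strand. ins-5, ins-9, ins-14, ins-25, ins-32 and ins-36 averaged below 1 CPM in every group.

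With 3 libraries a group, the 95% interval of a member's log2 fold change against DMSO had a median half-width of 0.93 to 0.97, depending on the drug. These intervals are not adjusted for the number of genes, so that a call needed a larger change at the same error. Under ABZ ins-35 changed by -1.58 (-2.49 to -0.66) and was not called. The same held for ins-11 under MBZ, at 2.17 (0.88 to 3.46). Of the 5 untested genes, ins-13 had 25 reads in all 18 libraries together, ins-15 had 85, ins-16 had 31, ins-21 had 70 and ins-39 had 42. Most of the ins-13 reads were in OxBZ (13) and TBZ (9), and the gene overlaps acdh-2 on the same strand, so that its reads are uncertain.

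The pathway around the peptides was described from lists of known genes. Of 17 tested genes for peptide processing, vesicles and release, 11 were higher and none lower under FBZ (median log2 fold change 0.36), 3 were higher and 8 lower under OxBZ (median -0.28), and none was called under ABZ, MBZ or TBZ. Of all genes, 24.3% were higher and 27.4% lower under FBZ, and 21.2% higher and 21.5% lower under OxBZ. unc-31, which encodes the CAPS protein that dense-core vesicle release needs, rose to 22.2 ± 0.728 CPM under FBZ, against 9.03 ± 0.850 CPM in DMSO (1.30 ± 0.16, adjusted p = 6.06e-05). tbc-8, a regulator of dense-core vesicle maturation (0.88 ± 0.10, adjusted p = 3.56e-05), and kpc-1, a furin-like proprotein convertase (0.81 ± 0.21, adjusted p = 0.00626), followed. Under OxBZ the falls were led by ida-1, a dense-core vesicle membrane protein (-0.97 ± 0.10, adjusted p = 6.87e-06), egl-21, the carboxypeptidase that trims neuropeptides (-0.96 ± 0.13, adjusted p = 8.55e-05), and egl-3, a proprotein convertase, with 82.0 ± 9.50 CPM under OxBZ and 155 ± 20.7 CPM in DMSO (-0.91 ± 0.14, adjusted p = 0.000174). The medians of the neuron markers, 0.83 under FBZ and -0.46 under OxBZ, had the same signs. Their summed level under OxBZ was nevertheless 491 to 509 CPM, against 408 to 474 CPM in DMSO. The part of the neuron markers was not tested.

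**Figure D5:**
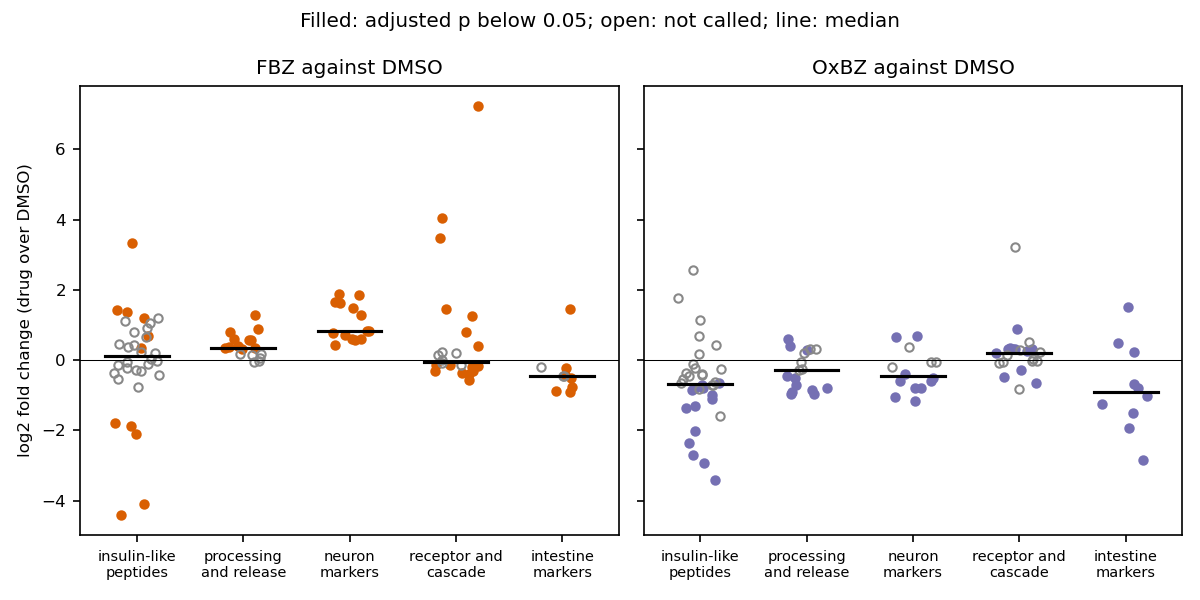
Log2 fold change of each tested gene over DMSO under FBZ (left) and OxBZ (right) for the insulin-like peptides, the genes of peptide processing and release, neuron markers, the receptor and its cascade, and intestine markers, with filled points for an adjusted p below 0.05 and a line at the median. The medians are 0.11, 0.36, 0.83, -0.04 and -0.44 under FBZ and -0.68, -0.28, -0.46, 0.21 and -0.92 under OxBZ, in the order named.

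Of the 22 genes of the receptor and its cascade, 7 were higher and 9 lower under FBZ and 8 higher and 3 lower under OxBZ, 1 was higher and 3 lower under TBZ, and none was called under ABZ or MBZ. These counts stand against 51.8% of all genes called under FBZ, 42.7% under OxBZ and 6.23% under TBZ. The receptor gene daf-2 fell to 161 ± 20.8 CPM under FBZ, 153 ± 6.72 under OxBZ and 161 ± 16 under TBZ, against 238 ± 16.7 CPM in DMSO. Its log2 fold changes were -0.57 ± 0.13 (adjusted p = 0.00319) under FBZ, -0.64 ± 0.13 (adjusted p = 0.00195) under OxBZ and -0.57 ± 0.13 (adjusted p = 0.0213) under TBZ, with -0.05 ± 0.13 under ABZ and -0.02 ± 0.13 under MBZ. Beside the receptor, akt-2, a kinase that restrains DAF-16, rose under OxBZ (0.90 ± 0.08, adjusted p = 1.82e-06) and fell under TBZ (-0.35 ± 0.08, adjusted p = 0.0162). sgk-1, a kinase of the same branch, rose under TBZ (0.91 ± 0.16, adjusted p = 0.00366), and the adaptor gene shc-1 fell under OxBZ (-0.47 ± 0.12, adjusted p = 0.00622).

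The transcription factor gene daf-16 itself moved little, by -0.16 ± 0.05 (adjusted p = 0.0123) under FBZ and -0.27 ± 0.05 (adjusted p = 0.000488) under OxBZ, and was not called elsewhere. The largest changes of the list under FBZ were in genes near 0 in DMSO. eak-3 had 58 reads under FBZ and none in DMSO, at least 17.5-fold higher when set against 3 counts over the DMSO libraries. eak-4 had 80 reads under FBZ and 4 in DMSO, a ratio of 18.1 with a 95% counting interval of 6.79 to 67.9, for counting error only. eak-6 rose by 3.48 ± 0.71 (adjusted p = 0.00137). These genes act with AKT-1 to limit DAF-16 in the neuroendocrine XXX cells.

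Among 22 tested genes known as DAF-16 targets, 2 were higher and 4 lower under FBZ, 1 was higher and 9 lower under OxBZ, 7 were lower under TBZ, 2 under ABZ and 1 under MBZ. Under FBZ that is 6 of 22, below the 51.8% of all genes called, and under OxBZ 10 of 22, near the 42.7% of all genes. The 9 lower under OxBZ were above the 21.5% of all genes called lower, with a median of -0.55 against -0.01. The 7 of 22 lower under TBZ were above the 3.17% of all genes called lower, with a median of -0.67 against 0.01. The 2 lower under ABZ stand against 0.606% of all genes, and the 1 under MBZ against 0.235%. sod-3, the manganese superoxide dismutase gene used as a reporter of DAF-16, averaged 0.842 ± 0.168 CPM under ABZ, 1.29 ± 0.297 under FBZ, 1.11 ± 0.128 under OxBZ, 1.17 ± 0.747 under MBZ and 0.928 ± 0.148 under TBZ, against 2.17 ± 1.84 CPM in DMSO. DMSO 3, at 4.30 CPM, was far above DMSO 1 (1.10) and DMSO 2 (1.11). Every estimate was negative, between -1.36 (ABZ) and -0.74 (FBZ), and none was called. fat-7, a stearoyl-CoA desaturase gene of the intestine, fell under FBZ to 3.22 ± 0.417 CPM, against 41.6 ± 35.5 CPM in DMSO (-3.69 ± 0.55, adjusted p = 0.000215). DMSO 2 was far the highest of its group at 82.6 CPM, against 18.4 and 23.9 CPM in DMSO 1 and DMSO 3, and without ABZ 2 and DMSO 2 the change was -2.70 (adjusted p = 4.00e-05). Under FBZ icl-1, the glyoxylate cycle enzyme gene (0.95), and the neuropeptide gene nlp-35 (0.67) rose. Under OxBZ dod-17 (-4.32 ± 0.96, adjusted p = 0.00305), the ferritin gene ftn-1 (-2.85 ± 0.33, adjusted p = 2.20e-05) and dod-24 (-2.24 ± 0.71, adjusted p = 0.0215) fell the most. The list does not sort its genes by the direction in which DAF-16 moves them. Falls and rises in it therefore give no direction of DAF-16 activity. aqp-1, an aquaporin gene of the intestine, was lower under ABZ (-0.88 ± 0.16, adjusted p = 0.00809), MBZ (-0.89 ± 0.16, adjusted p = 0.00876) and TBZ (-1.24 ± 0.16, adjusted p = 0.000396). ctl-2, the peroxisomal catalase gene, was lower under ABZ (-0.35), and cdr-2 (-1.79) and nnt-1 (-1.32) under TBZ.

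Genes with an insulin receptor-like L domain, named irld, could be tested for 24 of 56. Under FBZ 5 were higher and 9 lower, under OxBZ 2 were higher and 10 lower, and none was called under ABZ, MBZ or TBZ. The 14 and 12 genes called are shares near the background of 51.8% under FBZ and 42.7% under OxBZ. The 10 of 24 lower under OxBZ were above the 21.5% of all genes called lower, with a median of -1.12 against -0.01. irld-3 (-4.60 ± 0.86, adjusted p = 0.000836), irld-18 (-4.53 ± 0.94, adjusted p = 0.00151) and irld-14 (-4.31 ± 0.84, adjusted p = 0.00111) fell the most under FBZ. irld-3 had 0.252, 0.139 and 0.164 CPM under FBZ, against 1.78, 10.1 and 1.64 CPM in DMSO. irld-18 averaged 0.174 ± 0.0332 CPM under FBZ and 4.07 ± 4.35 CPM in DMSO, and irld-14 0.186 ± 0.0450 CPM under FBZ and 3.70 ± 3.79 CPM in DMSO. All 3 genes were highest in ABZ 2 and DMSO 2, the libraries with the most sperm RNA, whose part was not tested. Without these libraries the changes were -3.18 for irld-3, -3.18 for irld-18 and -3.0 for irld-14, all still called (adjusted p up to 0.000494). Under OxBZ the symbol irld-35, which 2 gene identifiers carry, fell by 3.17 and 2.65 on the log2 scale, and irld-57 by 2.96.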

How the data were processed

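Paired-end RNA sequencing reads of 18 libraries were counted per gene by the authors. The deposited values are raw counts per WormBase gene, made with Subread 1.4.6 and featureCounts per the submitters' processing notes; the sources used here do not give its strand and pair settings. Libraries were grouped from the labels. edgeR 4.0.16 (R 4.3.3) with TMM scaling, filterByExpr with a minimum count of 10 and 1 quasi-likelihood fit over the 6 groups (12 residual degrees of freedom) gave all main tests, with Benjamini-Hochberg adjustment over 17484 genes per comparison; the steps were tested on simulated data. A standard error is the absolute log2 fold change divided by the root of the F statistic. CPM were scaled by TMM factors, and lengths are united exons of the Ensembl annotation. Alternatives were RLE scaling, no filter, DESeq2 1.42.0, the replicate block, only the 2 groups compared, adjustment over all comparisons, halved counts, each library left out, and ABZ 2 and DMSO 2 left out together. Of the comparisons with 3 shared numbers, only in ABZ against DMSO did all same-numbered libraries deviate together (3 correlations of 0.57 to 0.84). Described in every library were the members called against DMSO under any drug and ins-1, ins-4, ins-6, ins-7, ins-11, ins-18 and daf-28; up to 3 called genes of the largest change per pathway list and drug were named, with daf-2, daf-16 and sod-3 (another gene of this rule is not reported here), and ins-2, ins-19, ins-23, ins-28 and ins-34 were added after their values were seen. Further lists were muscle (7 genes, 1 higher under FBZ and 2 lower under OxBZ), oocyte and germ line (12; 8 lower under FBZ, 1 higher and 2 lower under OxBZ), larval cuticle (11; 3 higher and 3 lower under FBZ, 1 lower under OxBZ) and yolk (6), with no other calls against DMSO in these lists. The members and lists were chosen with earlier results of these data known. Total counts were 57010263 to 67277284 a library.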

Additional observations from a re-analysis of the deposited data

How the results depend on the processing

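No result changed direction under any alternative, and 11 calls against DMSO held in each one run: ins-1, ins-7, ins-8, ins-11, ins-35 and ins-37 under FBZ and ins-12, ins-17, ins-27, ins-33 and ins-35 under OxBZ. Counts of members called within 1.5 times are not repeated here. With p-values adjusted over all comparisons together, ABZ had 2, MBZ 2 and TBZ 3 calls against DMSO, ABZ against TBZ 4 and MBZ against TBZ 3. DESeq2 gave 2, 1 and 3 for ABZ, MBZ and TBZ against DMSO, and 2 for MBZ against TBZ. Over all genes, adjustment over all comparisons gave 882 calls for ABZ, 996 for MBZ and 1763 for TBZ against DMSO. It gave 2062 for ABZ against TBZ and 1331 for MBZ against TBZ. DESeq2 gave 740, 942 and 2081 all-gene calls for ABZ, MBZ and TBZ against DMSO, and 1050 for MBZ against TBZ. With only the 2 groups compared in the fit, which leaves 4 residual degrees of freedom, there were 0 calls for ABZ and 0 for TBZ against DMSO, 9 for OxBZ against DMSO, 6 for ABZ against OxBZ, 8 for FBZ against MBZ, and 0 for ABZ or MBZ against TBZ. All-gene calls in these fits of 2 groups were 27, 12 and 4453 for ABZ, TBZ and OxBZ against DMSO. They were 4663 for ABZ against OxBZ, 7423 for FBZ against MBZ, 44 for ABZ against TBZ and 212 for MBZ against TBZ. With the replicate number as a block, ABZ against DMSO had 2 calls and MBZ against TBZ 0, with 419 and 307 over all genes. In the ABZ comparison, whose same-numbered libraries deviated together, the block changed no call but that of ins-35. With the block on those 2 groups alone ins-35 replaced ins-11. In the OxBZ comparison the block added ins-8 and ins-19 as higher. In no other comparison with 3 shared numbers did all same-numbered libraries deviate together (correlations from -0.50 to 0.50), and TBZ shares only 2 numbers with each group, too few to pair libraries here, although the correlations were 0.31 and 0.44 between MBZ and TBZ. Without ABZ 2 and DMSO 2 together, ABZ and TBZ had 0 calls against DMSO. Leaving out 1 library at a time gave 1 to 2 calls for ABZ, 7 to 13 for FBZ, 8 to 15 for OxBZ, 0 to 1 for MBZ and 0 to 3 for TBZ against DMSO, 4 to 8 for ABZ against FBZ, 7 to 20 for ABZ against OxBZ, 0 to 0 for ABZ against MBZ, 0 to 4 for ABZ against TBZ, 3 to 5 for FBZ against MBZ, 11 to 18 for FBZ against OxBZ, 4 to 9 for FBZ against TBZ, 8 to 20 for OxBZ against MBZ, 13 to 21 for OxBZ against TBZ, 0 to 3 for MBZ against TBZ and 14 to 23 for any difference. Depth limits the rarest members: 1 read is 0.0139 to 0.0181 CPM, and the counts of ins-8 under FBZ and of the 5 untested genes are a few reads a library. The halved counts and the block within ABZ and DMSO alone were chosen after the data had been seen.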
